A study of Mus musculus with 23 samples.

Results

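The members described here are the genes of the cornified envelope, the protein shell that terminally differentiated keratinocytes build under their plasma membrane. They were chosen by name from the array's annotation: the late cornified envelope genes (Lce), the small proline-rich genes (Sprr), the fused S100 genes (filaggrin, hornerin, repetin, cornulin and trichohyalin), loricrin, involucrin, cornifelin, Crct1 and the transglutaminases Tgm1 and Tgm3. The rule gave 45 genes with 53 probes among 35019 gene symbols on the array, and each gene was read from its probe with the highest mean signal. Of the 45 members, 42 were kept for testing among 28388 genes kept, because 7 or more of the 23 arrays showed their probe well above background. The 3 members left out were Flg2, well above background on 6 arrays, Sprr2b on 6 and Sprr2a1 on 3.

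The tissue was the circumvallate papilla, the taste papilla at the back of the tongue, from male C57Bl6/j mice. The Lean mice (n = 7 samples) ate a laboratory chow with 3% fat by weight. The DIO mice (n = 8), DIO standing for diet-induced obese, ate freely of an obesogenic diet whose fat was largely saturated. The labels leave DIO-R (n = 8) undefined, and it was taken to mean DIO mice held to 60% of the energy they would take freely. The labels name no transgene and no drug for any group. The papilla was cut out after elastase and dispase had freed the lingual epithelium from the connective tissue. Neither the mice's age nor the length of the diets is given in the labels, and nothing states whether 1 sample is 1 mouse. The p-values thus only set group differences against the spread among these samples, some of which may be technical. In bulk tissue, fewer cells of a type and less RNA per cell cannot be told apart.

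A keratinocyte that leaves the basal layer first lays down involucrin, then adds loricrin and small proline-rich proteins, and finally the late cornified envelope proteins. Transglutaminases join these proteins to one another through bonds between glutamine and lysine side chains. Filaggrin and its fused S100 relatives bundle keratin filaments or enter the envelope themselves, and lipids are attached to its outer face. In the tongue the dorsal surface is a cornifying stratified epithelium, whereas the cells of the taste buds, which the circumvallate papilla holds within that epithelium, do not cornify. Most of these genes lie side by side in the epidermal differentiation complex, a gene cluster conserved between mouse and human.

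On the arrays, 42 of the 45 members had probes on mouse chromosome 3 between positions 91884206 and 93275887 (build mm9, per the file headers), a span of 1.39 Mb. The other 3, Cnfn, Tgm1 and Tgm3, had probes on chromosomes 7, 14 and 2. Promoter windows from RefSeq (build GRCm38.p6) were found for 41 of the 45 members and were searched over the 250 bases before the annotated start. The AP-1 motif TGANTCA, read on both strands, was present in 16 of these 41 windows (39.0%) and in 6.75% of all 32851 windows of the table. It occurred in 7 of 9 Sprr2 windows, in 5 of 7 fused S100 windows, and in 0 of 12 Lce1 and 0 of 4 Lce3 windows. Windows of a family can be near copies, so these counts are not of independent windows. Sprr2d and Sprr2e were identical at 88% of the 250 positions, and Sprr2a1 and Sprr2a2, both without a match, at 100%. The median of the 36 Sprr2 pairs was 33.4%. The letters TATAAA on the gene strand between -40 and -16 from the start were found in 17 of 41 members against 1.99% of all windows, among them 9 of 13 Sprr and 2 of 16 Lce genes. The motif CACCC, either strand, was in 20 of 41 member windows, beside 52.0% of all windows, and AACCGG was in 0 of 41, beside 5.62%. A match describes the letters only and is no evidence that a factor bound there.

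The 200 bases before the start are shown for members that stand for the patterns of values described further on, each from 5′ to 3′ on the gene strand, with TGANTCA matches and TATAAA in capitals. The first set holds members with both motifs. In Sprr2d, Sprr2f and Sprr2h the AP-1 match began at -193, -197 and -198 and TATAAA at -29 from the start, and in Lor the AP-1 match began at -48. Their places in build GRCm38.p6 are Sprr2d chr3:92338940-92339139, plus strand, Sprr2f chr3:92364987-92365186, plus strand, Sprr2h chr3:92385485-92385684, plus strand, Sprr1a chr3:92485882-92486081, minus strand, Ivl chr3:92573736-92573935, minus strand, Lor chr3:92083143-92083342, minus strand, Rptn chr3:93393499-93393698, plus strand.
Sprr2d: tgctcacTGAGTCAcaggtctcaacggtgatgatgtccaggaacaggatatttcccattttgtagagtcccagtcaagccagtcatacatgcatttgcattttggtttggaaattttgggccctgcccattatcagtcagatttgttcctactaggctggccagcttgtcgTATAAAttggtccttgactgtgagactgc
Sprr2f: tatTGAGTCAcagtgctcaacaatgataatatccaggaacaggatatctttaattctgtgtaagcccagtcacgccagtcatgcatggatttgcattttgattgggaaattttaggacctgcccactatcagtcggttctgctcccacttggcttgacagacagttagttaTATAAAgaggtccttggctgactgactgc
Sprr2h: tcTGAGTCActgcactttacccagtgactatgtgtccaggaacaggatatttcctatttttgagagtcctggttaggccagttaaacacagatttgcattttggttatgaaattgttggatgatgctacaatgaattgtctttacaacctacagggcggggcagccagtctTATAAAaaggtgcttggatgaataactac
Sprr1a: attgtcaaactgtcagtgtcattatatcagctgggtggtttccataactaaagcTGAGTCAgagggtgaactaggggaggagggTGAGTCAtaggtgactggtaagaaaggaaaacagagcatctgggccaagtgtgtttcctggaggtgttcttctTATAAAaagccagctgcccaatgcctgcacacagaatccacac
Ivl: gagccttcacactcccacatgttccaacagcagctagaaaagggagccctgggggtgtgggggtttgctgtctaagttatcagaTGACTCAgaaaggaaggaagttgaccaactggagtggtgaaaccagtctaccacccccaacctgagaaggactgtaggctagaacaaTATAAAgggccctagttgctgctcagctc
Lor: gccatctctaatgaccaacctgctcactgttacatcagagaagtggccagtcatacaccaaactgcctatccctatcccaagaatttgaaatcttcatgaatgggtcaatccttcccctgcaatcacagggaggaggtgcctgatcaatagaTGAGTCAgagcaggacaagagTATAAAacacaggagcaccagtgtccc
Rptn: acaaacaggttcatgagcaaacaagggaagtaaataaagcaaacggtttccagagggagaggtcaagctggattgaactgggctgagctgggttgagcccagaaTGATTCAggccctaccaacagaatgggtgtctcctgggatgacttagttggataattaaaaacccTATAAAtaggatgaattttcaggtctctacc

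The second set holds Lce1 genes, which had no TGANTCA match in this window. Lce1g and Lce1i were identical at 85.6% of the 250 positions without gaps, the most alike of the 66 Lce1 pairs, whose median was 30.8%. Lce1m, which lies beside Crct1 and apart from the other Lce1 genes, shared 21.6% to 31.2% with them, with a median of 24.8%, and carried TATAAA at -29. That range holds both the 30.8% median of the Lce1 pairs and the 26.4% median of pairs from different families. A count without gaps falls wherever bases are inserted or lost between genes. Their places in the same build are Lce1g chr3:92752339-92752538, minus strand, Lce1i chr3:92778900-92779099, minus strand, Lce1m chr3:93019062-93019261, minus strand.
Lce1g: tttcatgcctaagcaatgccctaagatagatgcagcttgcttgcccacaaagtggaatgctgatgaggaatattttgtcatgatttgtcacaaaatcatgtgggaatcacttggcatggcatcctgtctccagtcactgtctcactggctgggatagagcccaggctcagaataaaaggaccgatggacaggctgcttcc
Lce1i: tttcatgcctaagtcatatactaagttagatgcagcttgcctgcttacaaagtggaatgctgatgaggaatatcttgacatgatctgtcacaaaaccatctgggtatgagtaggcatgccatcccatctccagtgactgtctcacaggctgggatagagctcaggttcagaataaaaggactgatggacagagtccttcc
Lce1m: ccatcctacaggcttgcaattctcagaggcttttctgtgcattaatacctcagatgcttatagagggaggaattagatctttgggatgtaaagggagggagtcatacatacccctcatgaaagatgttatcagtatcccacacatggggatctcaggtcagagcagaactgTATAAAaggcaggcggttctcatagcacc

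The arrays of all 23 samples had between 66.9% and 78.4% of probes well above background and no saturated spot, and pairs of arrays correlated at 0.960 to 0.991. Levels are given on a log2 scale, with the 75th percentile of each array set to 0 after background subtraction, so that a difference of 1 is a 2-fold difference, and levels of different probes are not compared. Single samples stood far apart in the members. In DIO 2 the median of the 42 members lay -2.62 from the Lean mean, against -0.97 in DIO 6, the next lowest DIO sample, and 0.54 in DIO 3, the highest. Among the Lean samples the medians ran from -0.90 in Lean 7 to 0.73 in Lean 3 and 0.73 in Lean 9, and among DIO-R from -0.82 in DIO-R 10 to 0.41 in DIO-R 4. The Lean and DIO ranges thus overlapped. The arrays lay on 3 slides that each held all 3 groups. A limma test between slides called 0 of the 42 members at an adjusted p below 0.05, beside 0.708% of all genes. At so small a share, 0 of 42 does not show that the members were free of slide differences.

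**Figure D1:**
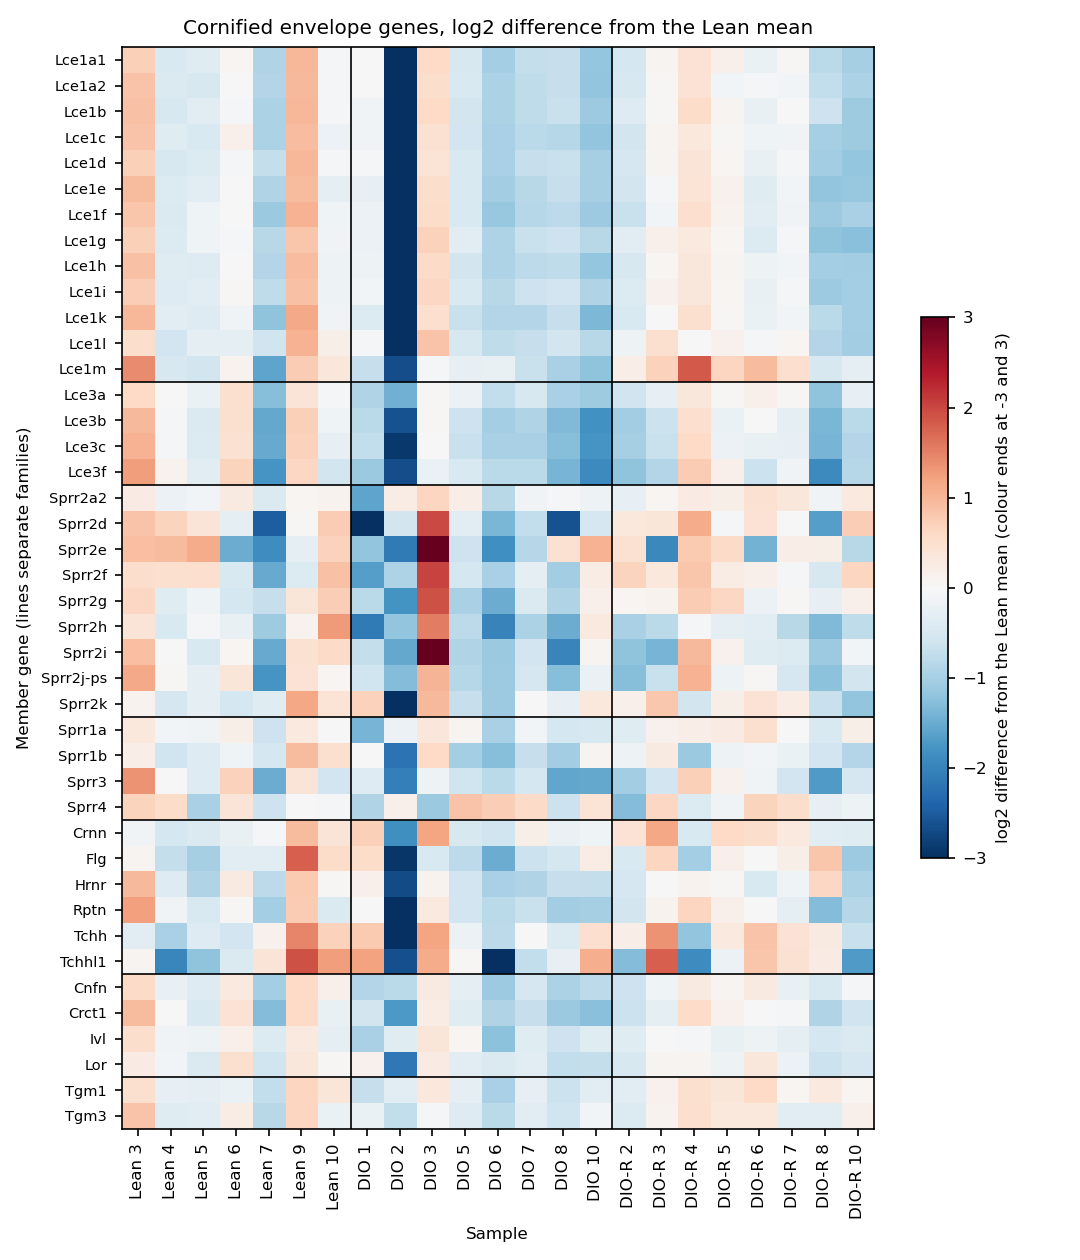
Each cell is the log2 difference of a member (rows, grouped by family) from its Lean mean in a sample (columns), for the 42 members kept and the 23 samples. DIO 2 is dark blue across the Lce1, Lce3 and most fused S100 rows, with an Lce1 median of -3.38, while DIO 3 is red in the Sprr2 rows, with a median of 1.91.

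The first comparison asks whether the obesogenic diet altered these genes in the papilla. The members were lower in DIO than in Lean in 41 of 42 cases, with a median log2 difference of -0.77, but none passed the test. By limma with Benjamini-Hochberg adjustment over all 28388 genes, 0 of 42 members were called at an adjusted p under 0.05, where the whole array gave 1 call (0.00352%). At an unadjusted p under 0.05, 19 of the 42 were lower and none higher, and of all genes 4.9% were lower at that level. In a fit of the Lean and DIO samples alone the member count was 7. Of all genes 58.9% were lower by any amount, and their median difference was -0.04. No member's Lean and DIO samples were without overlap (0 of 42, 0.12% of all genes). The smallest adjusted p among the members was 0.356, for Lce3b.

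Single samples moved these values. Without DIO 2 the member median was -0.50 and 7 members stayed under an unadjusted p of 0.05. The count was 6 without Lean 3, 7 without Lean 9, 8 without Lean 6, 10 without DIO 6, 11 without DIO 7 or DIO 10 and 12 without DIO 8. It was 33 without DIO 3 and 30 without Lean 7. Taken 1 by 1, 29 of the 42 differences changed sign or moved by over 1.5 times when some sample was left out, 24 of them without DIO 2. The same held for 32 in DIO-R against DIO (27 without DIO 2) and for 41 in DIO-R against Lean. Within slides 1, 2 and 3 the member medians were -0.32, -0.42 and -1.83, and with the slide as a block -0.77. DIO 2 lay on slide 3.

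The second comparison sets the energy-restricted mice against the freely fed obese mice. It shares the DIO samples with the first, so the members' differences in both are given side by side and are not independent. In DIO-R 39 of 42 members were higher than in DIO, with a median difference of 0.53 beside 0.01 for all genes, of which 51.7% were higher. Again 0 of 42 passed the test, with 17 calls on the whole array (0.0599%). At an unadjusted p under 0.05, 5 members were higher (Lce1m, Tgm1, Cnfn, Sprr1a and Tgm3) and none lower, and 5.93% of all genes were higher at that level. No member's samples were without overlap (0 of 42, 0.0881% of all genes). The median was 0.27 without DIO 2. The count of 5 became 20 without DIO 3, 9 without DIO-R 8, 3 without DIO 8, DIO-R 3 or DIO-R 5, and 2 without DIO 6, DIO-R 4 or DIO-R 6. Within slides 1, 2 and 3 the medians were 0.47, 0.31 and 1.23.

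The third comparison, DIO-R against Lean, left smaller differences. Of the 42 members 32 were lower in DIO-R, with a median of -0.22, beside 55.4% of all genes lower with a median of -0.02. None was called (0.127% of all genes were), 0 reached an unadjusted p under 0.05 (8.95% of all genes did; 2 members did without Lean 7), and 0 of 42 had samples without overlap (0.303%). The median was -0.14 without DIO-R 10, -0.10 without Lean 3 or Lean 9 and -0.38 without Lean 7, and within slides 1, 2 and 3 it was 0.11, -0.14 and -0.62. The smallest p among the members belonged to Sprr2h (adjusted p = 0.669), and a p of this size does not show that the groups are alike.

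**Figure D2:**
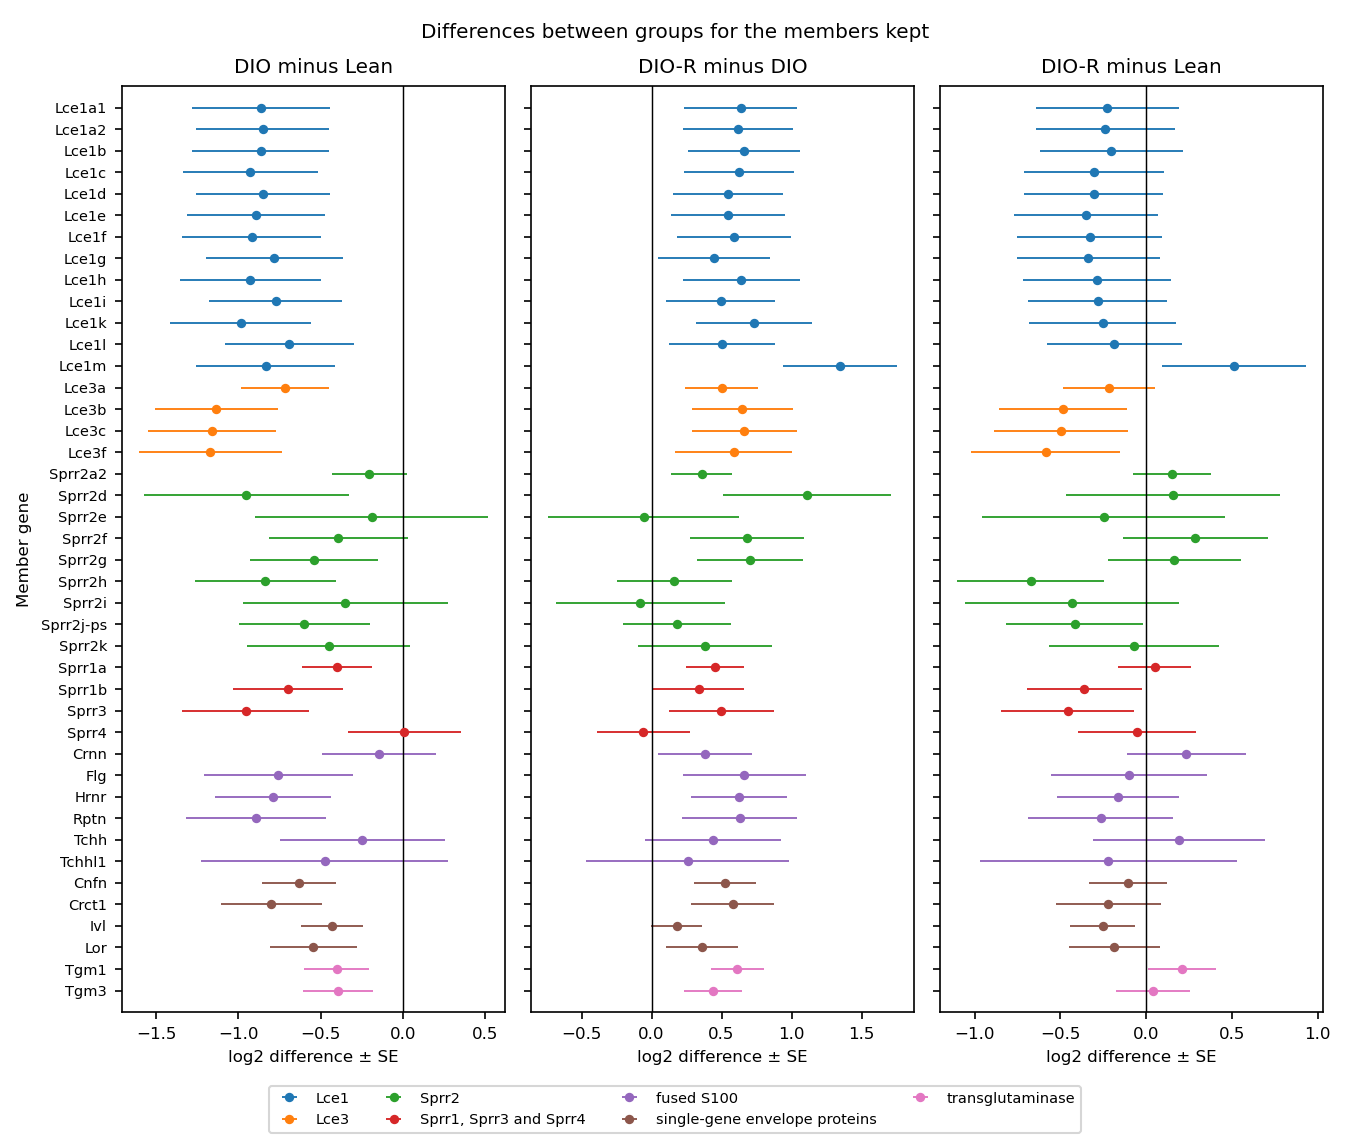
Log2 differences with their standard errors for the 42 members kept (rows, coloured by family) in the 3 comparisons (panels). In the DIO minus Lean panel all points but Sprr4 lie below 0, and in the DIO-R minus DIO panel Lce1m stands highest at 1.35.

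The Lce3 genes, late envelope proteins that in human skin rise on barrier injury, had the lowest family median in DIO. All 4 were lower in DIO, with a median of -1.15, and all 4 were under an unadjusted p of 0.05. Lce3b ran from 5.75 to 8.23 with a median of 7.21 in Lean, 4.67 to 7.31 with a median of 6.31 in DIO, and 5.90 to 7.78 with a median of 6.81 in DIO-R. The DIO samples below the Lean mean numbered 7 of 8, DIO 2 being the lowest and DIO 3 the highest, and 4 of the 7 Lean samples fell within the DIO range. The difference was -1.13 ± 0.37 SE, unadjusted p = 0.00594, adjusted p = 0.356, with the DIO mean 2.20-fold lower. Lce3c had 5.59 to 8.14 with a median of 7.04 in Lean, 4.19 to 7.12 with a median of 6.12 in DIO, and 5.71 to 7.70 with a median of 6.64 in DIO-R. Its difference was -1.16 ± 0.39 SE (adjusted p = 0.365), and its probe shared a run of 28 bases with that of Lce3b, so their signals are not separate to that extent.

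Lce3f had 3.65 to 6.67 with a median of 5.53 in Lean, 2.77 to 5.21 with a median of 4.45 in DIO, and 3.51 to 6.19 with a median of 4.68 in DIO-R. All 8 DIO samples lay below the Lean mean, though Lean 7 and 2 other Lean samples lay inside their range. Its difference was -1.17 ± 0.43 SE (adjusted p = 0.421). Lce3a had 6.67 to 8.53 with a median of 7.95 in Lean, 6.50 to 7.98 with a median of 7.11 in DIO, and 6.72 to 8.28 with a median of 7.82 in DIO-R. It differed by -0.72 ± 0.27 SE (adjusted p = 0.423), and its lowest Lean sample was again Lean 7. In DIO-R the 4 genes stood 0.50 to 0.66 above DIO and -0.58 to -0.22 from Lean, none called. The Lce3 median against Lean was -0.92 without DIO 2, and within slides 1, 2 and 3 it was -0.47, -1.03 and -2.32. Against DIO, the DIO-R median of 0.62 was 0.41 without DIO 2.

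The Lce1 family, the late envelope proteins of the normal epidermis, was lower in DIO for 13 of 13 genes, from -0.99 in Lce1k to -0.69 in Lce1l, with a median of -0.86. Without DIO 2 the median was -0.50, still with 13 of 13 lower. Lce1k, for example, spanned 2.69 to 5.04 with a median of 3.78 in Lean, 0.40 to 4.40 with a median of 3.11 in DIO, and 2.87 to 4.37 with a median of 3.76 in DIO-R. DIO 2 lay below every other sample of the study, DIO 10 (2.54) also lay below every Lean sample, and 6 DIO samples lay inside the Lean range. The Lce1k difference was -0.99 ± 0.43 SE, unadjusted p = 0.0312, adjusted p = 0.501. Lce1c had 4.44 to 6.33 with a median of 5.21 in Lean, 2.01 to 5.85 with a median of 4.56 in DIO, and 4.31 to 5.71 with a median of 5.27 in DIO-R, and differed by -0.93 ± 0.41 SE (adjusted p = 0.507). Within slides 1, 2 and 3 the Lce1 medians were -0.33, -0.46 and -2.28. In DIO-R all 13 were higher than in DIO, with a median of 0.62, or 0.25 without DIO 2, and 12 of 13 lay below Lean, with a median of -0.28 that ran from -0.43 without Lean 7 to -0.13 without Lean 9.

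Lce1m was the exception in the family. Its level was -2.94 to 0.05 with a median of -1.27 in Lean, -4.03 to -1.39 with a median of -2.04 in DIO, and -1.84 to 0.48 with a median of -0.78 in DIO-R. All 8 DIO-R samples lay above the DIO mean and all 8 DIO samples below the Lean mean, with overlap in both pairs. DIO-R exceeded DIO by 1.35 ± 0.41 SE, unadjusted p = 0.00316, adjusted p = 0.407, 2.54-fold. With all samples this was the largest difference of any member in that comparison, but without DIO 2 (1.08) or DIO 3 that of Sprr2d was larger. It stood -0.83 ± 0.42 SE from Lean in DIO and 0.51 ± 0.42 SE from Lean in DIO-R, the only Lce1 gene above Lean there. The DIO-R minus DIO difference was 1.35, 1.23 and 1.89 within slides 1, 2 and 3, and between 1.08 and 1.49 when single samples were left out.

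The Sprr2 genes encode short, proline-rich bridges between the larger envelope proteins and are induced in stressed epithelia. All 9 kept were lower in DIO, with a median of -0.45, and 7 of 9 were higher in DIO-R than in DIO, with a median of 0.36. With all samples, 0 of 9 reached an unadjusted p under 0.05 in any comparison. In DIO against Lean 6 did without DIO 3, 3 without Lean 7 and 1 without DIO 10, and in DIO-R against DIO 4 did without DIO 3 and 1 without DIO-R 8. Sprr2d had -1.20 to 2.14 with a median of 1.68 in Lean, -2.23 to 3.26 with a median of 0.64 in DIO, and -0.36 to 2.40 with a median of 1.62 in DIO-R. The DIO group held both the lowest sample, DIO 1, and the highest, DIO 3, and the DIO SD was 1.64 against 1.17 in Lean and 0.82 in DIO-R. The differences were -0.95 ± 0.62 SE in DIO from Lean and 1.11 ± 0.60 SE in DIO-R from DIO (adjusted p = 0.709 and 0.540).

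Sprr2g showed -2.16 to -0.72 with a median of -1.59 in Lean, -3.26 to 0.45 with a median of -2.31 in DIO, and -1.69 to -0.70 with a median of -1.38 in DIO-R. All 8 DIO-R samples lay above the DIO mean, and the difference was 0.70 ± 0.38 SE (adjusted p = 0.536). Sprr2h ranged over -1.86 to 0.50 with a median of -0.81 in Lean, -2.90 to 0.75 with a median of -1.84 in DIO, and -2.12 to -0.82 with a median of -1.57 in DIO-R. The medians of DIO and DIO-R were below that of Lean, although the highest sample was DIO 3. It differed from Lean by -0.84 ± 0.43 SE in DIO and -0.67 ± 0.43 SE in DIO-R, and all 8 DIO-R samples were below the Lean mean. The pseudogene Sprr2j-ps had -3.97 to -1.05 with a median of -2.13 in Lean, -3.50 to -1.17 with a median of -2.93 in DIO, and -3.49 to -1.15 with a median of -2.72 in DIO-R. Its medians had the same order, with differences of -0.60 ± 0.40 SE and -0.42 ± 0.40 SE from Lean. Sprr2a2 differed by -0.21 ± 0.23 SE in DIO from Lean and 0.36 ± 0.22 SE in DIO-R from DIO, but by -0.01 and 0.16 without DIO 1. Sprr2f and Sprr2k differed from Lean in DIO by -0.39 ± 0.42 SE and -0.45 ± 0.49 SE. Sprr2f was -0.74 without DIO 3 and -0.21 without DIO 1, and Sprr2k was -0.00294 without DIO 2. The faint Sprr2e (9 arrays well above background) and Sprr2i (22 arrays) had standard errors of 0.71 and 0.62, and their DIO minus Lean values of -0.19 and -0.35 were 0.01 and 0.02 with normexp background correction. In Sprr2i, DIO 3 stood at 0.67 with the other DIO samples at or below -3.18. Without DIO 3 the Sprr2 median in DIO was -0.83 from Lean, and the DIO-R median over DIO was 0.18 without DIO 1 and 0.11 without DIO 2.

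Sprr3, a component of the non-keratinising oral and oesophageal epithelium, spanned 2.33 to 5.17 with a median of 3.82 in Lean, 1.76 to 3.66 with a median of 3.11 in DIO, and 2.11 to 4.52 with a median of 3.28 in DIO-R. All 8 DIO samples were below the Lean mean, with 3 of the 7 Lean samples inside the DIO range. It differed by -0.96 ± 0.39 SE, unadjusted p = 0.0216, adjusted p = 0.465, and DIO-R lay 0.50 ± 0.37 SE above DIO. Sprr1a, an early bridge protein, had 6.33 to 7.26 with a median of 6.94 in Lean, 5.56 to 7.28 with a median of 6.62 in DIO, and 6.48 to 7.43 with a median of 7.09 in DIO-R. Its DIO-R samples were above the DIO mean in 7 of 8 cases, at a difference of 0.45 ± 0.20 SE, unadjusted p = 0.0380, adjusted p = 0.502, and DIO 1 was the lowest sample. Sprr1b had 2.53 to 4.06 with a median of 2.99 in Lean, 0.90 to 3.72 with a median of 2.27 in DIO, and 2.00 to 3.37 with a median of 2.93 in DIO-R, and differed from Lean by -0.70 ± 0.33 SE in DIO and -0.36 ± 0.33 SE in DIO-R. Sprr4 was near background, well above it on 1 of 7 Lean, 5 of 8 DIO and 4 of 8 DIO-R arrays, and was the only member not lower in DIO, at 0.01 ± 0.34 SE, a sign that turned with normexp background correction.

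Among the fused S100 genes, which encode filaggrin and its relatives, all 6 kept were lower in DIO (median -0.62) and higher in DIO-R than in DIO (median 0.53). Hornerin, Hrnr, ran over 1.31 to 3.18 with a median of 2.25 in Lean, -0.48 to 2.35 with a median of 1.50 in DIO, and 1.25 to 2.82 with a median of 2.14 in DIO-R. DIO 2 was the lowest of all samples, and 6 of 8 DIO samples lay below the Lean mean. Its differences were -0.79 ± 0.35 SE in DIO from Lean and 0.62 ± 0.34 SE in DIO-R from DIO (adjusted p = 0.518 and 0.542). Repetin, Rptn, differed by -0.89 ± 0.42 SE and 0.63 ± 0.41 SE, and filaggrin, Flg, by -0.76 ± 0.45 SE and 0.66 ± 0.44 SE. Trichohyalin, Tchh, which stiffens hair follicles and the filiform papillae of the tongue, was at -0.25 ± 0.50 SE from Lean in DIO. The separate gene trichohyalin-like 1, Tchhl1, was at -0.48 ± 0.75 SE from Lean, and cornulin, Crnn, at -0.14 ± 0.35 SE. The family median from Lean was -0.31 without DIO 2 and -0.31 without Lean 9, and without DIO 2 Tchh and Crnn lay above Lean, at 0.16 and 0.10. The DIO-R median over DIO was 0.21 without DIO 2.

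Loricrin, Lor, the main envelope protein of skin, had 8.44 to 9.51 with a median of 9.07 in Lean, 6.89 to 9.28 with a median of 8.64 in DIO, and 8.39 to 9.38 with a median of 8.87 in DIO-R. DIO 2 was the lowest sample, DIO 8 (8.31) and DIO 10 (8.32) also lay below every Lean sample, and 5 DIO samples lay inside the Lean range. The difference was -0.54 ± 0.26 SE, unadjusted p = 0.0515, adjusted p = 0.563. Without DIO 2 it was -0.31. Involucrin, Ivl, the first scaffold laid down, had -0.01 to 0.94 with a median of 0.30 in Lean, -0.82 to 0.77 with a median of 0.05 in DIO, and -0.11 to 0.40 with a median of 0.15 in DIO-R. DIO 6, DIO 1 and DIO 8 (-0.22) lay below every Lean sample, while DIO 2 lay inside the Lean range, at -0.36 from the Lean mean. The DIO-R samples of Ivl were all below the Lean mean. DIO differed from Lean by -0.43 ± 0.19 SE, unadjusted p = 0.0309, adjusted p = 0.501. DIO-R lay 0.18 ± 0.18 SE above DIO and -0.25 ± 0.19 SE from Lean. The first ran from 0.07 without DIO 6 to 0.29 without DIO 3, and was -0.04 without both DIO 1 and DIO 6.

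Cornifelin, Cnfn, an envelope component of stratified epithelia encoded outside the cluster on chromosome 7, was low in DIO against both other groups. Its values were 5.80 to 7.43 with a median of 6.99 in Lean, 5.75 to 7.10 with a median of 6.03 in DIO, and 6.20 to 7.10 with a median of 6.74 in DIO-R. In DIO 7 of 8 samples were below the Lean mean, and in DIO-R 8 of 8 were above the DIO mean, but 4 of 7 Lean samples lay within the DIO range. In DIO the difference from Lean was -0.63 ± 0.23 SE, unadjusted p = 0.0111, adjusted p = 0.402. In DIO-R the difference from DIO was 0.52 ± 0.22 SE, unadjusted p = 0.0261, adjusted p = 0.492. Leaving out single samples kept them between -0.80 and -0.53, and between 0.46 and 0.65. Crct1, a cysteine-rich protein encoded next to the Lce genes, had 6.24 to 8.50 with a median of 7.53 in Lean, 5.82 to 7.77 with a median of 6.75 in DIO, and 6.64 to 8.10 with a median of 7.39 in DIO-R. It differed by -0.80 ± 0.31 SE in DIO from Lean and by 0.58 ± 0.29 SE in DIO-R from DIO (adjusted p = 0.429 and 0.526). Within slides 1, 2 and 3 the Cnfn difference from Lean was -0.35, -0.76 and -0.98.

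Tgm1, the membrane-bound transglutaminase of keratinocytes, had 2.34 to 3.73 with a median of 2.89 in Lean, 2.10 to 3.40 with a median of 2.75 in DIO, and 2.75 to 3.69 with a median of 3.29 in DIO-R. All 8 DIO-R samples were above the DIO mean, and DIO 3 was the only DIO sample above the DIO-R median. The difference was 0.61 ± 0.19 SE, unadjusted p = 0.00426, adjusted p = 0.430, 1.53-fold, and it was 0.78, 0.64 and 0.50 within slides 1, 2 and 3. Tgm3, the soluble transglutaminase, had 3.55 to 5.24 with a median of 4.19 in Lean, 3.58 to 4.35 with a median of 4.05 in DIO, and 3.99 to 4.90 with a median of 4.52 in DIO-R. DIO-R lay above DIO by 0.44 ± 0.21 SE, unadjusted p = 0.0458, adjusted p = 0.509, and all 8 DIO samples were below the Lean mean, at -0.40 ± 0.21 SE. A second Tgm3 probe, dimmer, differed by -0.01 between DIO-R and DIO and by -0.26 between DIO and Lean, so the probes disagreed on the first. Tgm1 was -0.40 ± 0.20 SE from Lean in DIO and 0.21 ± 0.20 SE in DIO-R.

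**Figure D3:**
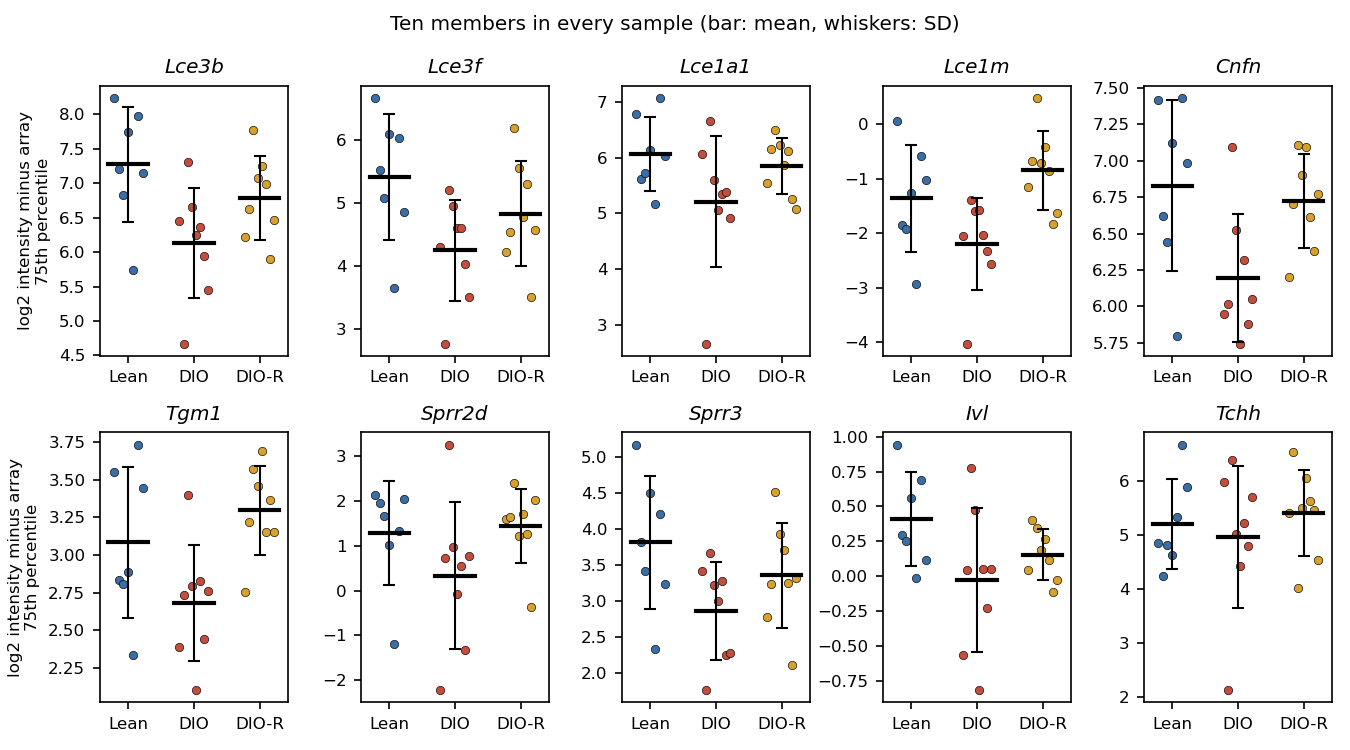
Levels of 10 members (panels, each with its own scale) in every sample of Lean, DIO and DIO-R, as log2 intensity minus the array's 75th percentile; bars are group means and whiskers SD. The groups overlap in every panel, and a single DIO sample, DIO 2, lies at 2.66 in Lce1a1 and 2.13 in Tchh.

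The members did not vary as 1 unit from sample to sample. After each group's mean was removed, the 78 pairs of Lce1 genes correlated over the 23 arrays at a median r of 0.99 (0.79 to 1.00) and the 6 Lce3 pairs at 0.95, while the 36 Sprr2 pairs had a median of 0.69 (-0.11 to 0.90) and the 117 pairs of an Lce1 with an Sprr2 gene 0.46. Lce1m was most like Lce3c (0.94), not another Lce1 gene, and Sprr3 was most like Lce3f (0.95). These values describe the arrays and share each array's scaling. For 12 members that stand for the families, 66 pairs of these deviations were tested by 100000 permutations, where 1e-05 is the smallest p possible. Of these pairs 42 had an adjusted p of r under 0.05, with all samples included. Some of the 42 depended on 2 samples. Without DIO 2 and DIO 3, r fell from 0.70 to 0.33 for Lce1a1 with Tchh and from 0.67 to 0.29 for Lor with Tchh. It fell less in other pairs, given below. The count itself was not taken without these samples.

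The Lce1 genes varied together with repetin and loricrin. Lce1a1 and Rptn gave r = 0.95 and rho = 0.92 (permutation p = 1e-05 and 1e-05, adjusted 5.1e-05 and 5.5e-05). That r was 0.91 without DIO 2 and DIO 3, and 0.96, 0.93 and 0.96 within slides 1, 2 and 3. Lce1a1 and Lor gave r = 0.91 and rho = 0.82 (permutation p = 1e-05 and 2.0e-05, adjusted 5.1e-05 and 8.2e-05), with r 0.79 without DIO 2 and DIO 3, and 0.84, 0.86 and 1.00 within slides 1, 2 and 3. Lce3c and Sprr3 gave r = 0.93 and rho = 0.92 (permutation p = 1e-05 and 1e-05, adjusted 5.1e-05 and 5.5e-05), with r 0.92 without DIO 2 and Lean 7, and 0.97, 0.92 and 0.89 within slides 1, 2 and 3.

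Sprr1a, involucrin, cornifelin and Tgm1 formed a second set, chosen like the first (Lce1a1, Lce3c, Sprr3, Lor and Rptn) after the values were seen. Within the first set r ran from 0.72 (Lce1a1 with Sprr3) to 0.95 (Lce1a1 with Rptn), within the second from 0.73 (Ivl with Tgm1) to 0.90 (Cnfn with Tgm1), and between the sets from 0.23 (Sprr1a with Lor) to 0.77 (Lce3c with Cnfn), so that the ranges overlapped. Sprr1a and Ivl gave r = 0.86 and rho = 0.84 (permutation p = 1e-05 and 2.0e-05, adjusted 5.1e-05 and 8.2e-05), with r 0.84 without DIO 1 and Lean 7, and 0.92, 0.94 and 0.81 within slides 1, 2 and 3. Cnfn and Tgm1 gave r = 0.90 and rho = 0.88 (permutation p = 1e-05 and 1e-05, adjusted 5.1e-05 and 5.5e-05), with r 0.84 without DIO 3 and Lean 7, and 0.97, 0.83 and 0.87 within slides 1, 2 and 3. Among the lower pairs, Lce1a1 and Sprr1a gave r = 0.24 and rho = 0.44 (permutation p = 0.274 and 0.0376, adjusted 0.317 and 0.0528), with r 0.31 without DIO 2 and DIO 3, and 0.14, 0.68 and -0.09 within slides 1, 2 and 3. The pair Sprr1a and Sprr1b gave r = 0.16 and rho = 0.24 (permutation p = 0.462 and 0.272, adjusted 0.483 and 0.315), with r 0.30 without DIO 1 and Lean 7, and 0.01, 0.54 and -0.32 within slides 1, 2 and 3. Sprr1b varied with trichohyalin, and Sprr1b and Tchh gave r = 0.92 and rho = 0.88 (permutation p = 1e-05 and 1e-05, adjusted 5.1e-05 and 5.5e-05), with r 0.88 without DIO 2 and DIO 3, and 0.93, 0.97 and 0.92 within slides 1, 2 and 3.

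Single DIO samples differed in which families were low. DIO 2 lay -3.38 from the Lean mean in the Lce1 median and -2.80 in the fused S100 median, but -0.54 in the transglutaminases and -0.18 in Sprr1a. DIO 1 was near Lean in Lce1 (-0.11) and above it in the fused S100 genes (0.63), but low in Sprr2 (-1.18). DIO 3 was the reverse of the group in Sprr2 (1.91) and close to Lean in Lce3 (0.03). DIO 10 was low in Lce3 (-1.79) and near Lean in Sprr2 (0.16).

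**Figure D4:**
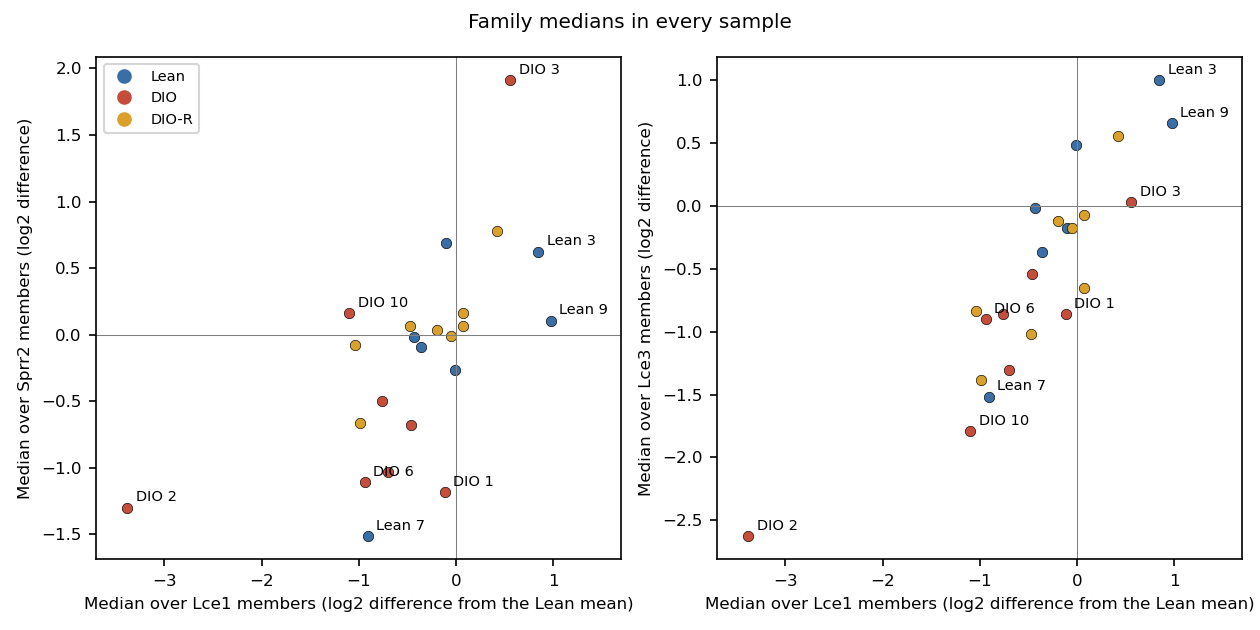
Each point is a sample, at the median log2 difference from the Lean mean over the 13 Lce1 members (horizontal) and over the 9 Sprr2 (left) or 4 Lce3 members (right). In the right panel the samples low in Lce1 are low in Lce3 too, with DIO 2 at -3.38 and -2.63, whereas in the left panel DIO 1 and DIO 3 sit at -1.18 and 1.91 for Sprr2.

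Along the cluster the lower values in DIO spanned all families from Lor to Tchhl1, and the 3 lowest lay at Lce3b, Lce3c and Lce3f. The S100 genes that flank the cluster on the same chromosome, calcium-binding proteins of which 13 were tested, had a median difference of 0.00 from Lean in DIO, with 6 lower and 7 higher. In DIO-R against DIO 11 of the 13 were higher, beside 51.7% of all genes. Their median there was 0.08, or 0.03 without DIO 1 and 0.21 without DIO 3. At an unadjusted p under 0.05, 4 of these S100 genes were higher in DIO-R, beside 5.93% of all genes. S100a7a, an epithelial alarmin, was -0.80 ± 0.31 SE and S100a4 0.50 ± 0.21 SE from Lean, neither called. S100a11 and S100a10, beyond trichohyalin-like 1 at the far end, differed by -0.08 and 0.06.

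**Figure D5:**
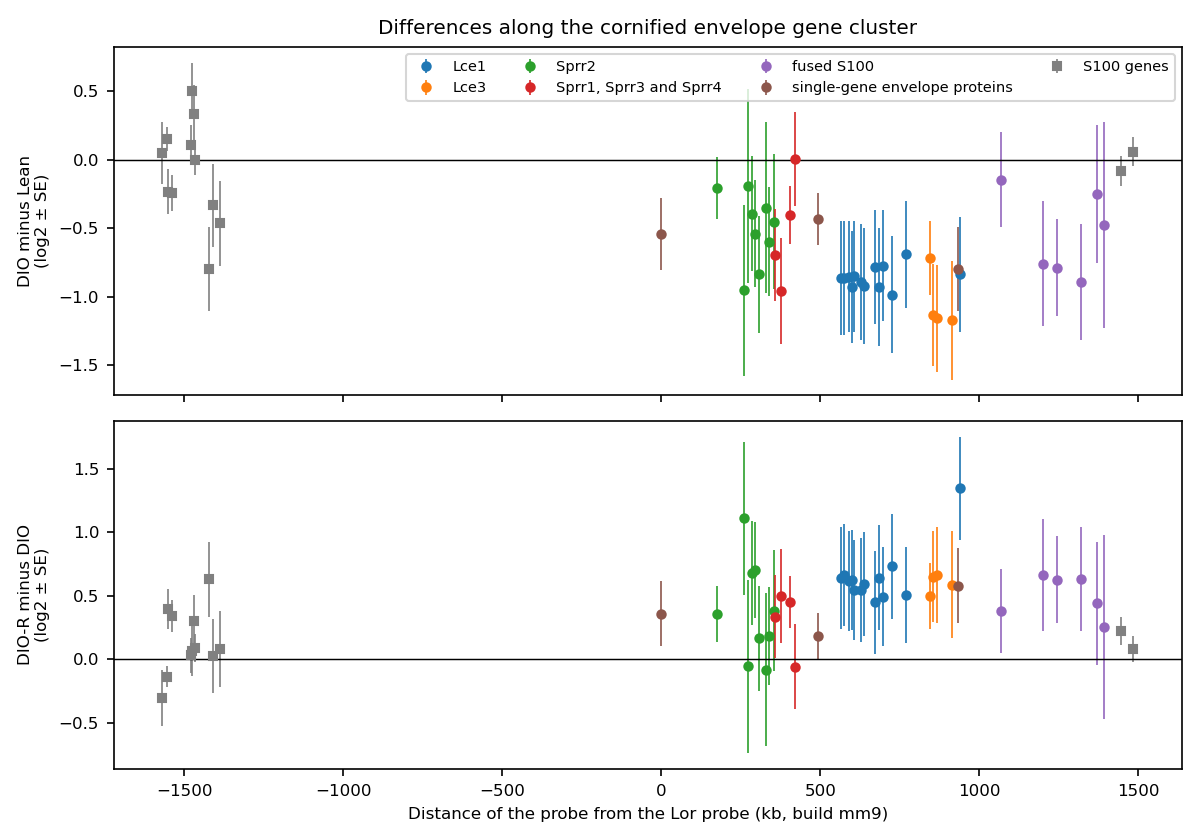
Log2 differences with standard errors for the 39 members kept on chromosome 3 and for 13 flanking S100 genes (grey squares), against the distance of the probe from the Lor probe in kb. In the upper panel the Lce3 points lie lowest, down to -1.17, while the grey squares scatter around 0, from -0.80 to 0.50.

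Other genes of cornification had differences of the same sign. Of the enzymes that make and attach the barrier lipids, 21 of 21 tested were lower in DIO than in Lean, with a median of -0.41 that lay between -0.52 and -0.30 when 1 array was left out. Examples were Elovl4, which makes very long fatty acids, at -0.70 ± 0.21 SE, Pnpla1, which builds acylceramide, at -0.74 ± 0.22 SE, and Ugcg, which makes glucosylceramide, at -0.58 ± 0.18 SE. Of the filaggrin-processing and corneocyte proteases with their inhibitors, 17 of 18 tested were lower in DIO than in Lean, with a median of -0.48 that lay between -0.63 and -0.35 when 1 array was left out. Among them were the filaggrin protease Asprv1 at -1.06 ± 0.36 SE and the channel-activating protease Prss8 at -0.36 ± 0.12 SE. Of the scaffold, crosslinking and desmosome partners, 23 of 24 tested were lower in DIO than in Lean, with a median of -0.31 that lay between -0.38 and -0.24 when 1 array was left out. Of these, corneodesmosin, Cdsn, differed by -0.76 ± 0.28 SE and suprabasin, Sbsn, by -0.52 ± 0.21 SE.

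Of the transcription factors of terminal differentiation, 28 of 29 tested were lower in DIO than in Lean, with a median of -0.18 that lay between -0.23 and -0.15 when 1 array was left out. They include Ovol1 at -0.58 ± 0.23 SE and Hopx at -0.48 ± 0.19 SE. Of the suprabasal and filiform keratins, 13 of 15 tested were lower in DIO than in Lean, with a median of -0.22 that lay between -0.28 and -0.13 when 1 array was left out, with Krt78 at -0.86 ± 0.36 SE and Krt13 at -0.33 ± 0.16 SE. Basal keratinocyte genes had a median of -0.02 with 8 of 12 lower. No gene of these lists was called in any of the 3 comparisons. In DIO-R against DIO the medians, with their ranges when 1 array was left out, were 0.34 (0.26 to 0.45) for the lipid enzymes, 0.42 (0.31 to 0.53) for the proteases and 0.34 (0.28 to 0.40) for the partners. They were 0.17 (0.15 to 0.21) for the factors, 0.23 (0.17 to 0.36) for the keratins and 0.20 (0.12 to 0.24) for the basal genes.

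Markers of other cell types differed between the groups in part. Fibroblast and matrix markers were higher in DIO for 9 of 10, with a median of 0.23, or 0.11 without Lean 9 and 0.37 without DIO 3. Their median per sample ran from -0.83 to 0.37 in Lean, -0.62 to 0.82 in DIO and -0.59 to 0.53 in DIO-R. Erythrocyte markers were higher in DIO for 6 of 6 tested, with a median of 0.69, and lower in DIO-R than in DIO for 6 of 6, with a median of -0.87; per sample they ran from -0.62 to 0.62 in Lean, 0.03 to 1.40 in DIO and -0.62 to 0.42 in DIO-R. Macrophage markers were higher in DIO for 8 of 10, with a median of 0.23 (0.12 without Lean 9), and Aif1 was the 1 gene called on the whole array, at 0.95 ± 0.13 SE (adjusted p = 0.00780). Their per-sample medians ran from -0.53 to 0.26 in Lean, -0.40 to 0.67 in DIO and -0.71 to 0.12 in DIO-R. Endothelial markers had a median of 0.06 (-0.04 to 0.17) in DIO from Lean, skeletal muscle markers -0.04 (-0.29 to 0.13), gland and salivary markers -0.44 (-0.83 to -0.02) and adipocyte markers -0.11 (-0.30 to 0.12), with the range when 1 array was left out in parentheses. In DIO-R from DIO the medians were -0.23 (-0.35 to -0.14) for fibroblast, -0.36 (-0.46 to -0.21) for macrophage, -0.19 (-0.30 to -0.12) for endothelial, -0.62 (-0.75 to -0.38) for muscle, -0.41 (-0.56 to -0.11) for gland and -0.75 (-0.89 to -0.64) for adipocyte markers. In DIO-R from Lean they were -1.12 (-1.42 to -0.57) for gland markers, with 11 of 11 lower, -0.85 (-0.95 to -0.75) for adipocyte markers, with 8 of 8 lower, and -0.62 (-0.82 to -0.38) for muscle markers. The part of these cells in the member values was not tested.

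The medians of taste cell markers in DIO from Lean were 0.02 for type I, -0.29 for type II (9 of 9 tested lower) and -0.20 for type III markers. Without DIO 1 the type II and III medians were -0.08 and 0.01. DIO 1 and DIO 6 lay at -1.27 and -0.89 in the type II median, whereas DIO 2 lay at 0.39. DIO 2 had 0.64 in the fibroblast markers, -0.78 in the suprabasal keratins and 0.22 in the basal genes, and DIO 3 had -0.62, 0.63 and 0.31. Without DIO 1 and DIO 6, samples chosen after their values were seen, the member median in DIO from Lean was -0.75 and that in DIO-R from DIO 0.56. Without DIO 2 and DIO 3 they were -0.68 and 0.44.

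Outside the members, the genes whose values followed the mean of the standardized members most closely over the 23 arrays, after group means were removed, were led by Cdsn, which encodes the adhesive protein of corneocytes, at r = 0.97. The others with a gene name among the first 10 were Il1f6 (0.96), Smpd3 (0.95), Tent5b (0.95), Dusp14 (0.95), Shb (0.95), Rnf225 (0.94) and Il1f5 (0.94). Il1f6 and Il1f5 encode an epithelial agonist and an antagonist of the interleukin-36 receptor, and Smpd3 a sphingomyelinase. In all, 70 of 28333 genes had an r over 0.9. Cdsn differed by -0.76 ± 0.28 SE in DIO from Lean and Il1f6 by -0.88 ± 0.36 SE, neither called.

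Further probes of the members mostly agreed in sign. In DIO from Lean, second probes gave -0.69 for Crct1, -0.44 for Ivl, -0.78 for Lce1a2, -0.99 for Lce1c and -0.84 for Lce1i, beside -0.80, -0.43, -0.85, -0.93 and -0.77 for the probes used. Both further Sprr2a2 probes gave -0.11 and -0.07, beside -0.21. The second Crct1 probe placed DIO-R 1.00 above DIO and 0.30 from Lean, where the probe used gave 0.58 and -0.22. Probes that the array names by transcript and describes as filaggrin, outside the rule, differed by -0.43 and -0.40, and one described as late cornified envelope 1J by -0.71. Apart from Lce3b with Lce3c, no pair of member probes shared a run of 20 or more bases, but near-identical transcripts of a family can still share probe signal.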

How the data were processed

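Total RNA (25 ng) of each sample was labelled with Cy3 and hybridised to 1 one-colour Agilent mouse array. The deposited scanner files hold background-subtracted intensity values (processed signal) made with Feature Extraction 10.10.1.1, per the submitters' processing notes, with probe positions in build mm9, per the file headers. Each array had 62976 spots, of which 3671 controls were left out, and spots flagged as outliers were dropped. Spots of a probe were averaged on the log2 scale, and the array's 75th percentile was subtracted. A table of log2 values deposited by the authors (35829 probes, array medians 7.63 to 7.64, made in part with limma per the submitters' processing notes, its exact normalization not given in the sources used here) served as an alternative. It listed 40 of the 42 members.

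Each gene was read from 1 probe, the brightest on average, and kept where that probe was well above background on 7 or more of 23 arrays. One limma fit (3.58.1, R 4.3.3) over all 28388 kept genes and 3 groups, with no covariate, gave the 3 comparisons. P-values were adjusted by Benjamini-Hochberg over all kept genes, with a threshold of 0.05, after the fit was tested on simulated data. The number of arrays limits the precision. Tables and plots were made with Python 3.11.15, pandas 2.3.3 and matplotlib 3.10.9.

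The members and all gene lists were chosen with earlier results of these data known. Every member could be named, in family order. Levels in every group were given for the 10 members with the smallest p in each comparison, and the 3 genes with the smallest p in DIO against Lean could be named from each partner list, together with the 10 other genes most correlated with the members. S100a10 and S100a11 were named for their place beyond the cluster, after their values were seen, and the samples left out in pairs were likewise chosen after seeing the data. Replicate numbers in the labels were not treated as pairs in the main fit. Over 18 same-numbered pairs, deviations from the group means correlated at -0.37 to 0.33, with 4 pairs over 0.1. These values cannot exclude that same-numbered samples belong together, as they were not compared with pairs of different numbers. Alternatives changed the background correction, the normalization, the filter, the probe rule, the moderation, the samples and the blocks for slide and replicate number. A genome sequence and protein sequences were not used here.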

Additional observations from a re-analysis of the deposited data

Results flagged for a closer look

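Among the 126 groups of samples examined (42 members in 3 groups), 23 held a sample whose gap to its neighbour was large against the range of the group by Dixon's criterion. Chance alone gives about 1 in 20. They concerned 22 members, and members of a family vary together, so the 23 are not independent.

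DIO 2 was the lowest DIO sample in 18 of them. In the Lce1 family its levels were 2.66 for Lce1a1, 3.49 for Lce1a2, 1.43 for Lce1b, 2.01 for Lce1c, 2.72 for Lce1d, 1.40 for Lce1e, 1.69 for Lce1f, 0.87 for Lce1g, 0.54 for Lce1h, 3.01 for Lce1i, 0.40 for Lce1k, -0.13 for Lce1l and -4.03 for Lce1m. The next lowest DIO sample lay between -2.57 for Lce1m and 5.64 for Lce1a2. DIO 2 also stood at 1.33 in Rptn, -0.48 in Hrnr, 2.13 in Tchh, 6.89 in Lor and -6.49 in Sprr2k.

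DIO 3 was the highest DIO sample at 0.67 in Sprr2i and -1.17 in Sprr2j-ps. Lean 7 was the lowest Lean sample at 6.67 in Lce3a and -1.20 in Sprr2d. DIO-R 8 was the lowest DIO-R sample at -0.36 in Sprr2d.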

How the results depend on the processing

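Under all 35 settings fitted across the genes, 0 members passed an adjusted p under 0.05 in any of the 3 comparisons, and leaving out single samples also gave 0 to 0. The members tested numbered 42, except for 40 in the authors' table and 45 with no filter on dim probes. They numbered 37 where a probe had to be well above background on all arrays. At an unadjusted p under 0.05 the members numbered 0 to 33 in DIO against Lean and 2 to 20 in DIO-R against DIO over these settings. The smallest adjusted p of a member was 0.103, for Lce3b without Lean 7. Leaving out single samples moved the member median between -0.93 and -0.50 in DIO against Lean, 0.27 and 0.71 in DIO-R against DIO, and -0.38 and -0.10 in DIO-R against Lean, and within slide 3 it was -1.83 in the first and 1.23 in the second.

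The count of genes called on the whole array in DIO against Lean, 1 in the design reported, was 2 with normexp background correction, 9 in the authors' deposited table, 3 with the slide as a block, 3 with trend and robust moderation, 27 without DIO 1 and DIO 6 and 2 without DIO 2 and DIO 3, both pairs chosen after seeing the data, and 1 to 37 (37 without DIO 6) with single samples left out. In DIO-R against DIO it was 17, and 27 after quantile normalization, 26 in the authors' table, 10 without DIO 1 and DIO 6 and 11 to 24 with single samples left out. In DIO-R against Lean it was 36, and 58 without DIO 1 and DIO 6 and 26 to 64 with single samples left out. The causes were not tested. Of the genes under an unadjusted p of 0.05 in DIO against Lean, 45.3% were higher, and 58.2% after quantile normalization. In DIO-R against Lean the same shares were 49.5% and 63.9%.

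Blocking on replicate number used the samples whose number occurs in more than 1 group (replicate block). The genes called were then 0, 4 and 9 in the 3 comparisons, and the member medians -0.41, 0.57 and 0.13. In DIO-R against Lean 33 of 42 members were higher in that fit, beside 10 in the main fit. Whether same-numbered samples belong together is not known. For the 10 members with the smallest p in each comparison, 503 values under other settings kept their direction and 7 changed sign. No member passed the adjusted p threshold under any setting, so keeping its side of the threshold says nothing on stability. The 7 were all in DIO-R against Lean within a slide. In slide 1 Ivl was 0.0089, Sprr3 0.019, Sprr1b 0.15 and Sprr2j-ps 0.11. In slide 2 Sprr3 was 0.056, and in slide 3 Lce1m was -0.35 and Tgm1 -0.087. Over all members, 32 of 42 were higher in DIO-R than in Lean within slide 1, 12 within slide 2 and 4 within slide 3. Scaling, background, probe or slide settings turned the sign of Sprr2e, Sprr2i and Sprr4 in DIO against Lean, of Sprr4 in DIO-R against DIO and of Crct1, Flg, Sprr2k, Sprr4 and Tgm3 in DIO-R against Lean.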
